A study of Homo sapiens with 40 samples.

Results

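The regions described here are CENP-A ChIP-Seq peaks on the arms of the 22 autosomes, away from centromeres and outside the 8q24 segment that surrounds MYC. A peak was taken when it lay at least 5 Mb from the centromere bands of its chromosome in hg19, and wider pericentromeric stretches of chromosomes 1, 9, 10 and 16 were left out together with the 8q24 segment. This rule took 461 of the 5748 peaks in the deposited lists. The choice used position alone, and no peak lay close to the 5 Mb limit. The nearest peak inside it was 5.78 Mb from a centromere band (chr12:27517342-27517674, HIRA knockdown), and the nearest outside it, among the chromosome positions not left out, was 2.79 Mb away (chr11:48805098-48805209, HIRA+HJURP knockdown). Closeness of peaks to the edges of the left-out stretches was not measured.

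The cells were SW480, an established human colon cancer line, transfected for 72 hours with control siRNA, with siRNA against DAXX, HIRA or HJURP, or with the pairs HIRA+DAXX and HIRA+HJURP. In the labels the control is named untreated, but the methods describe a control siRNA. CENP-A nucleosomes were released with MNase and precipitated with ACA serum, a human serum against centromere proteins, from 4 ChIP libraries each of control, DAXX, HIRA and HJURP and from 2 each of the double knockdowns. The libraries of a condition were merged into 1 list of start and end positions, so that no difference between conditions has a replicate error or a test, and the number of libraries and the double knockdown cannot be told apart. The 6 values given in a row below follow the order control, DAXX, HIRA, HJURP, HIRA+DAXX and HIRA+HJURP.

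CENP-A is the histone H3 variant on which the kinetochore is built, and HJURP is the chaperone that loads it at centromeres. HIRA and DAXX are chaperones of the variant H3.3. HIRA acts mainly at genes and regulatory elements, and DAXX, with its partner ATRX, at telomeres and other repetitive chromatin. Human centromeres are made of alpha satellite, a tandem repeat in which some copies carry the CENP-B box, the binding motif of the protein CENP-B.

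The arm sites differed in sequence, and 7 windows of 240 bases from the GRCh37 reference are shown for the kinds of site that the results below describe. The first pair comes from sites with CENP-B box matches, the third from a site of satellite pentamers, the fourth from a site in all 6 lists, the fifth from a GC-rich site found in the control and HIRA lists, and the last pair from 12p. Capitals mark matches, on either strand, of the CENP-B box core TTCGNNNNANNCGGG in the first pair and runs of at least 3 tandem copies of the pentamer TTCCA, or its reverse complement, in the third.
2q21, ANKRD30BL intron, chr2:132996737-132996976: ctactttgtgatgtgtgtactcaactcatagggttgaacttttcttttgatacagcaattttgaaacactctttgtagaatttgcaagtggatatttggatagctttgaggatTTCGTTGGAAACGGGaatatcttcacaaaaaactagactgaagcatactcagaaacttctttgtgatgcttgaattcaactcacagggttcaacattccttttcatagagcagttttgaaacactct
4q13, no gene, chr4:68265918-68266157: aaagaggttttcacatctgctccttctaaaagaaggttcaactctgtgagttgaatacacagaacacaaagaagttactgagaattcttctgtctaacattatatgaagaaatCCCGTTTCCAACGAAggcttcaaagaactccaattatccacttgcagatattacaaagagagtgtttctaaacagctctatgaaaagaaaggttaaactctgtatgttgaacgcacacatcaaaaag
9q21, MAMDC2-AS1 intron, chr9:72653137-72653376: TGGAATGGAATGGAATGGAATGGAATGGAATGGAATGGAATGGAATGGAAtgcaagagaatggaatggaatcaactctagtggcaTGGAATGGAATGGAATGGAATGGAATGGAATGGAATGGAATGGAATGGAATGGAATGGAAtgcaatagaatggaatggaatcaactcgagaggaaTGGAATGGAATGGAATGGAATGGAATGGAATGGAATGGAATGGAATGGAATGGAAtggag
10q, DHX32 intron, chr10:127578433-127578672: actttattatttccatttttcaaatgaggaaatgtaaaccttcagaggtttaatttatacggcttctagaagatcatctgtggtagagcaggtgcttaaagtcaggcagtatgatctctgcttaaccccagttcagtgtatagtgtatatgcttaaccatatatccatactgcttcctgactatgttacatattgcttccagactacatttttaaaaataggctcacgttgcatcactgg
1q, PMF1 intron, chr1:156186322-156186561: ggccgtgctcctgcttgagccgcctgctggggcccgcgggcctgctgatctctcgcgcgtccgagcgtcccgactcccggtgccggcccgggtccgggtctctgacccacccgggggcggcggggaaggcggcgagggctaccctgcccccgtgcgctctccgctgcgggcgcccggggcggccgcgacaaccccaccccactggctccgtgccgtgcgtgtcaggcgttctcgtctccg
12p, no gene, chr12:25906323-25906562: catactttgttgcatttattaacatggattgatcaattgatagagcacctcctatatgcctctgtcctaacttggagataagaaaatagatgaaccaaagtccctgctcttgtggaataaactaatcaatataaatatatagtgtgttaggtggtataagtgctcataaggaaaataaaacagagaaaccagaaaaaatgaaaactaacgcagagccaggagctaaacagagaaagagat
12p, SOX5 intron, chr12:24338291-24338530: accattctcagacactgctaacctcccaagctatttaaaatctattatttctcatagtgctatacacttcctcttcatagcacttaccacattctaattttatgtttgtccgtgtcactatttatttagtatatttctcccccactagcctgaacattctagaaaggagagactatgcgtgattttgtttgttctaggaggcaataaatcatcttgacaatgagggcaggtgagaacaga
The 2q21 site (chr2:132996702-132997694) held 3 CENP-B box matches on the plus strand, 341 and 342 bases apart, and the 4q13 site (chr4:68264216-68266804) held 3 on the minus strand, 339 and 1020 bases apart. No other arm site held a match. Counted only in a window of 358 bases, 1 of the 273 arm sites had one, beside 4 of 24598 windows of that length placed along the arms (0.0163%). Tandem pentamers stood in 3 sites and in 1 of the arm windows, and 3 tandem copies of the telomere repeat TTAGGG stood in none of the sites and in 2 of the windows. A match is a description of the letters and not evidence that a protein bound there.

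Every knockdown list held more arm peaks than the control list, and also more peaks in all. Per the methods, sequencing depth differed between replicates and reads were single- or paired-end. The ratios below are not corrected for either. The study also sampled reads to equal depth and reported similar results for ectopic coverage genome-wide. The whole lists held 408, 952, 848, 940, 1018 and 1582 peaks, of which 4.41, 7.46, 12.6, 8.83, 7.37 and 6.76% were arm peaks. The numbers of arm peaks were 18, 71, 107, 83, 75 and 107, so that the knockdown lists held 3.94, 5.94, 4.61, 4.17 and 5.94 times as many as control. The bases covered followed another order. The arm peaks covered 18.2, 50.05, 76.8, 51.7, 18.3 and 27.2 kb, and the coverage of HIRA+DAXX was 1.01 times that of control although it held over 4 times as many peaks. Peaks of the double knockdowns were narrow, with median widths of 201 and 167 bp, whereas the median widths of the 4 other lists were 678.5, 519, 588 and 495 bp. Among peaks at least 500 bp wide, the HIRA+DAXX list held 0.7 times and the HIRA+HJURP list 1.3 times the number in control, so the excess of the double knockdowns lay largely in narrow peaks.

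**Figure D1:**
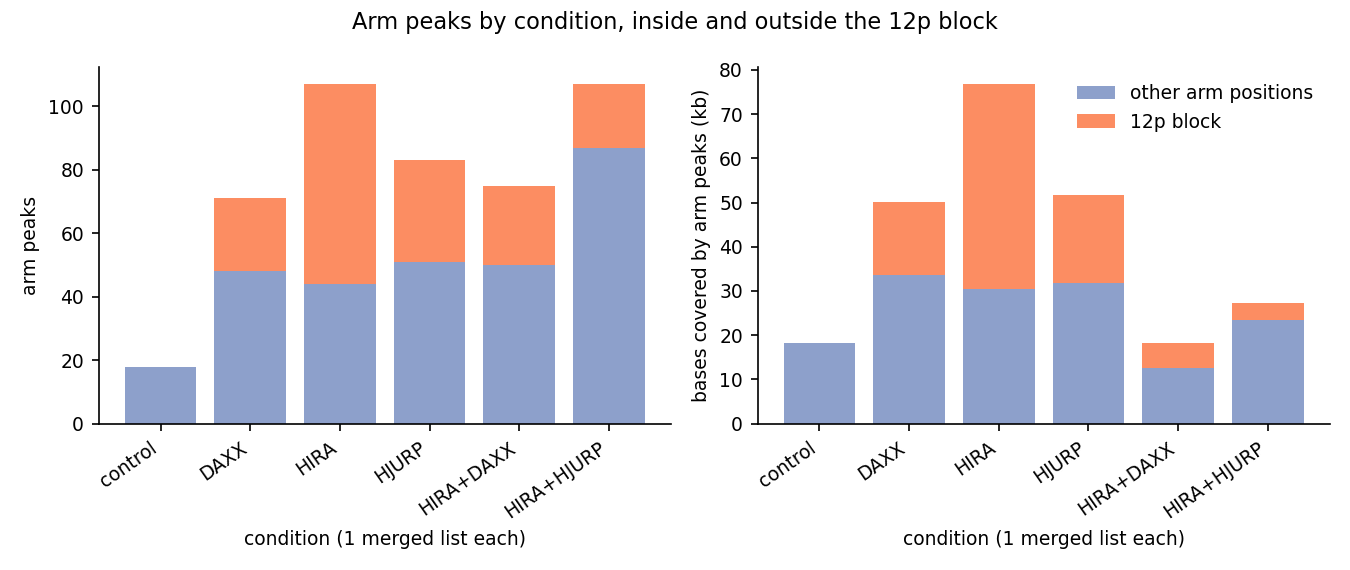
Number of arm peaks (left) and bases they cover in kb (right) in the 1 merged list of each condition, with the part inside the 12p block in orange and all other arm positions in blue. Control has no peak in the block, and HIRA has 63 there of its 107.

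Merged across conditions, the 461 peaks formed 273 sites, where a site joins peaks that share a base, and 168 loci, where a locus joins sites within 10 kb. They were spread unevenly. Sites were found on 16 of the 22 autosomes and none on 11, 15, 16, 20, 21 or 22. Chromosome 12 alone held 140 sites.

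The largest group of arm peaks was a block on 12p between the positions 21.9 and 27.5 Mb (chr12:21882899-27517674), which was delimited after the positions were seen. It held 163 peaks at 137 sites, which is 24.3 sites per Mb beside 0.0554 per Mb in the rest of the arms, in 0.229% of the arm bases. The control list had no peak in it. The lists held 0, 23, 63, 32, 25 and 20 block peaks, covering 0, 16.4, 46.3, 19.96, 5.71 and 3.84 kb. HIRA knockdown had the most by number and by bases, and 58.9% of all its arm peaks lay there (95% Wilson interval 49.4 to 67.7%), beside 32.4% for DAXX, 38.6% for HJURP, 33.3% for HIRA+DAXX and 18.7% for HIRA+HJURP. These intervals cover counting error only, and neighbouring peaks are not independent.

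The block had sharp edges. The preceding peak of any list on chromosome 12 ended 10.7 Mb before it and the next one started 7.32 Mb after it, inside the centromere band. Within the block the median gap between neighbouring sites was 18.98 kb and the largest was 267 kb. In all 5 knockdown lists the first peak started between 21.9 and 22.1 Mb and the last ended between 26.9 and 27.5 Mb, with HIRA+HJURP ending earliest. All lists together covered 1.42% of the 5.63 Mb. The lists hold no read depth, and DNA copy number over the block was not analysed here.

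**Figure D2:**
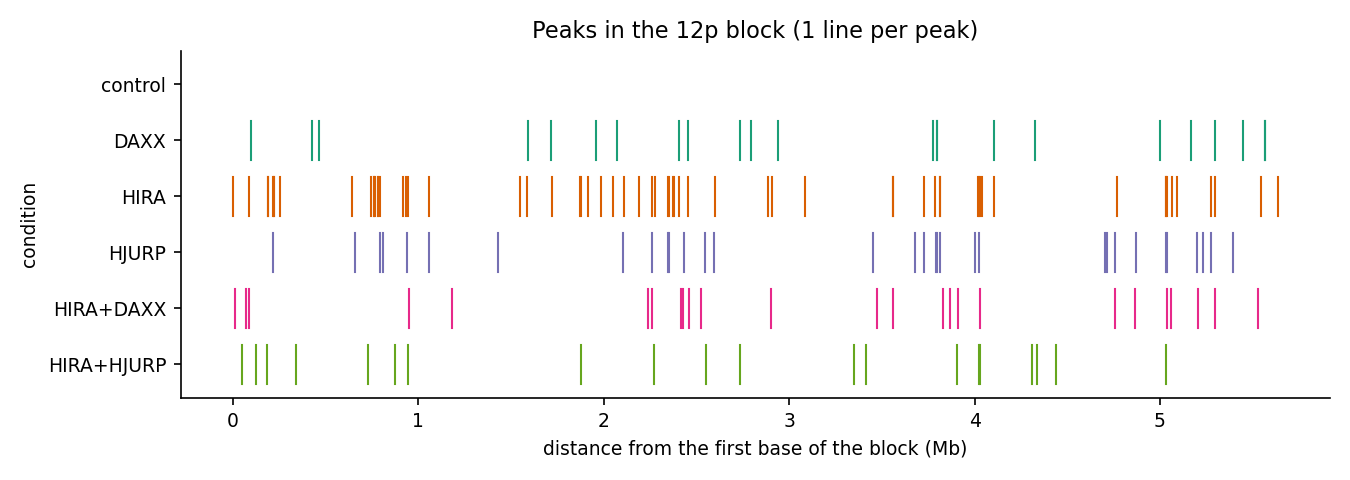
Position of each of the 163 peaks of the 12p block, 1 line per peak, as distance in Mb from the first base of the block, with 1 row per condition. The control row is empty, and the 5 knockdown rows have peaks along most of the block, mostly at different positions.

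The peaks of the block were in the bodies of protein-coding genes at 107 of 137 sites (78.1%, 95% Wilson interval 70.5 to 84.2%), whereas protein-coding genes cover 61.3% of its bases. Of the 25 protein-coding genes in it, 21 had a peak. SOX5, a developmental transcription factor gene 1033 kb long, had 39 peaks, in numbers of 0, 6, 16, 7, 6 and 4. ITPR2, an inositol trisphosphate receptor that releases calcium from the endoplasmic reticulum, had 18 peaks as 0, 1, 6, 6, 4 and 1. LMNTD1, named for its lamin tail domain, had 16 as 0, 3, 4, 5, 3 and 1. These 3 genes were the only ones of the block with a peak in all 5 knockdowns.

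Other genes of the block had peaks in fewer lists. ABCC9, a regulatory subunit of potassium channels, had 8 peaks (0, 1, 3, 0, 2 and 2), and ETNK1, an ethanolamine kinase, had 6 (0, 0, 3, 1, 1 and 1). C2CD5 had 10 peaks, of which 7 were in the HIRA list, 2 in the HJURP list and 1 in the HIRA+HJURP list. ST8SIA1, a ganglioside synthase, had 5 peaks, and STK38L, a protein kinase, had 4. MED21, a Mediator subunit, had 1 peak each in DAXX, HIRA and HIRA+DAXX.

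Gene bodies of any kind held 112 of the 137 sites (81.8%, 95% Wilson interval 74.4 to 87.3%), beside 77.6% of the block bases, which lies within the interval. At gene starts, 2 of the 137 sites (1.46%, 0.401 to 5.17%) were within 1 kb of an annotated start of a protein-coding transcript, where 2.202% of the block bases are, also within the interval. The sequence was mostly unique and AT-rich, as in the pair of 12p windows shown above. The median GC content of the sites was 35.6%, beside a median of 36.9% for 57 windows placed along the block. At 2 sites at least 50% of the 36-base words were copied elsewhere in the genome, beside 4 of the 57 windows.

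The knockdown lists held peaks at mostly different positions in the block. Of its 137 sites, 114 had a peak in 1 list, 21 in 2 and 2 in 3 lists, and none had a peak in 4 or more. Thus 16.8% of the sites recurred in at least 2 lists (95% Wilson interval 11.5 to 23.9%). The overlap was highest between HIRA and HJURP, where 11 of 32 HJURP peaks (34.4%) and 12 of 63 HIRA peaks (19.05%) shared a base. HIRA and DAXX shared 3 of 23 DAXX peaks (13.04%) and 3 of 63 HIRA peaks (4.76%). DAXX and HIRA+HJURP shared none. With loci in place of sites, 36 of 92 (39.1%) recurred, and 56 were in 1 list.

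The SOX5 gene shows how neighbouring peaks alternated between lists. Its widest peak was 1914 bp, in the DAXX list (chr12:24337300-24339213), and a HIRA peak of 716 bp covered the end of the same site. Elsewhere in the gene, HIRA and DAXX also met at chr12:24286001-24287331, where the DAXX peak was 1331 bp and the HIRA peak 805 bp. HIRA and HJURP met at chr12:24236260-24237653, with widths of 712 and 1161 bp, and at chr12:24231003-24231787, with 588 and 712 bp. The other SOX5 peaks were mostly alone. The pair of block sites in 3 lists lay elsewhere. The first (chr12:25905569-25907316, in HIRA, HJURP and HIRA+HJURP) was outside genes, in a locus 100640 bp from LMNTD1, the nearest protein-coding gene. The second was at MED21 (chr12:27180775-27182728, in DAXX, HIRA and HIRA+DAXX).

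Outside the block, the arms held 298 peaks at 136 sites, and the excess over control was smaller. The numbers were 18, 48, 44, 51, 50 and 87, or 2.67, 2.44, 2.83, 2.78 and 4.83 times control. The whole knockdown lists also held more peaks than control, as given above. In these parts HIRA had the fewest peaks of the knockdown lists, whereas it had the most in the block. Its whole list, with 848 peaks, was also the smallest of the knockdown lists. The coverage ratios were 1.85, 1.67, 1.74, 0.693 and 1.29, so that HIRA+DAXX covered fewer bases than control.

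By sites, recurrence outside the block was higher than in it and lower than nearer to centromeres. Of the 136 sites, 59 (43.4%, 95% Wilson interval 35.3 to 51.8%) had a peak in at least 2 lists. By loci the gap to the block was smaller, with 39 of 76 (51.3%) outside beside 36 of 92 (39.1%) inside. The corresponding share by sites was 67.5% (63.0 to 71.6%) of 452 pericentromeric sites, 68.2% (63.0 to 72.9%) of 333 sites inside centromere bands, and 71.3% (66.8 to 75.4%) of 425 sites in the 8q24 segment. The 12p block and the 8q24 segment were both dense runs of peaks, but they differed in makeup. The ratio of block peaks to 8q24 peaks was 0.404 in the HIRA list (63 to 156) and between 0.0421 and 0.114 in the 4 other knockdown lists, while control had 0 and 81. These differences are descriptive, with no test between conditions or parts.

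**Figure D3:**
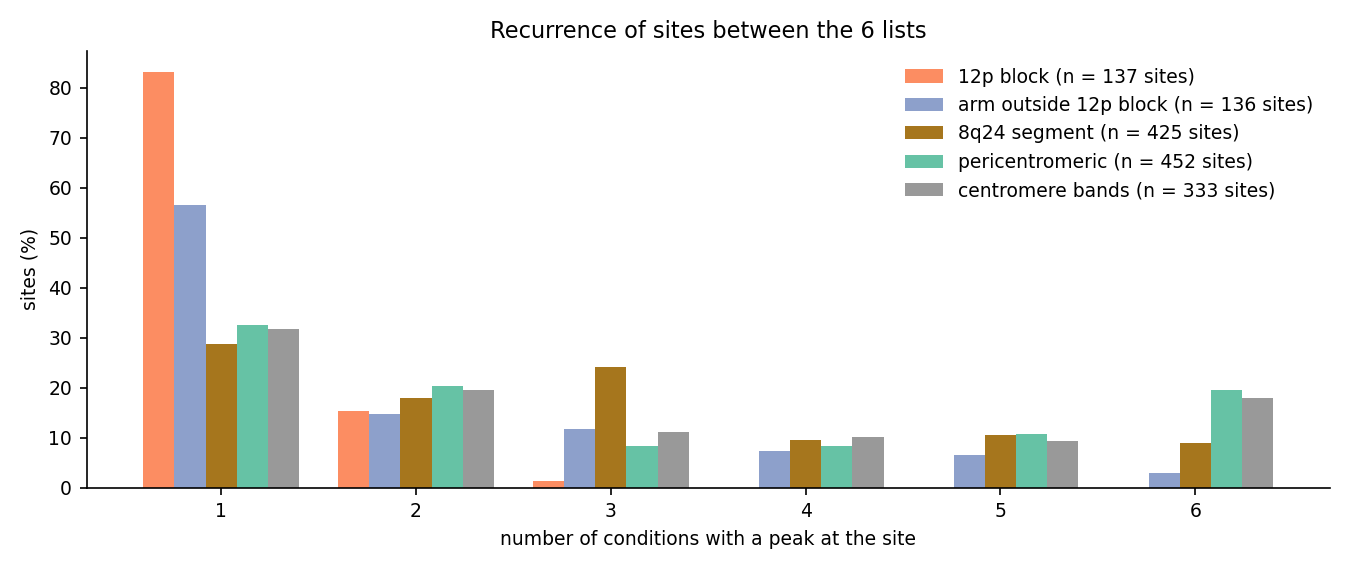
Share of sites, in percent, by the number of conditions with a peak at the site, for the 12p block, the other arm sites, the 8q24 segment, pericentromeric sites and sites in the centromere bands. In the 12p block 114 of 137 sites have a peak in a single condition, and no block site reaches 4 conditions.

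The 18 control arm peaks were of distinct kinds. Of them, 8 had a GC content between 48.2 and 75.5% and the other 10 between 30.2 and 39.7%, with none between. The GC-rich peaks were at gene starts or in bodies of protein-coding genes. They included HP1BP3, which encodes a heterochromatin-binding protein (chr1:21111100-21113558, 2459 bp), PAF1 with MED29, subunits of the PAF1 and Mediator complexes (chr19:39881015-39882495, 1481 bp), and PPP2R1A, the scaffold subunit of protein phosphatase PP2A (chr19:52692933-52693520, 588 bp). Smaller ones, named after their values were seen, were at PMS2 with AIMP2 (348 bp), at ID2 (197 bp) and at PMF1 (351 bp), which encodes a kinetochore protein and supplied the GC-rich window above. Of the control peaks, 7 (38.9%, 95% Wilson interval 20.3 to 61.4%) lay within 1 kb of a protein-coding transcript start, a zone that holds 2.60% of the arm bases. These 7 include the low-GC peak in CDC27. In the knockdown lists the share so near a start was between 2.67% and 4.23%. The knockdown shares count the 12p block too, where control had no peak and 2 of 137 sites lay so near a start.

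Most of these GC-rich peaks had no counterpart after knockdown. Of the 8, 5 touched no knockdown peak and the other 3 touched a HIRA peak alone. The 3 were EGR1, an immediate early transcription factor gene, with 2276 bp in control and 2036 bp in HIRA, PMF1 with 351 and 300 bp, and H3-3B, a gene that encodes H3.3 itself, with 458 and 573 bp and named after its values were seen. Of the 10 peaks low in GC, 9 touched a knockdown peak. In all, 12 of the 18 control peaks (66.7%) touched a peak of some knockdown, and 27.8, 61.1, 44.4, 38.9 and 33.3% touched a peak of DAXX, HIRA, HJURP, HIRA+DAXX and HIRA+HJURP. Seen from the other side, 93.0, 89.7, 90.4, 84.0 and 91.6% of the arm peaks of these lists shared no base with a control peak.

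A GC-rich peak at a gene start was also seen in the HIRA list without control. These were RPS12, a ribosomal protein gene (chr6:133135460-133135778, 319 bp), and HEXIM1, an inhibitor of transcription elongation (chr17:43225689-43225906, 218 bp), together with a site 30 bp from a transcript start at ZNF175 (chr19:52074306-52074506, 201 bp). All 3 were chosen after their values were seen. Over all arm peaks, GC contents of 45% or more were found in 8, 2, 6, 3, 2 and 5 peaks, and the 8 of control and the 6 of HIRA all lay in sequence that was not largely repeated elsewhere.

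**Figure D4:**
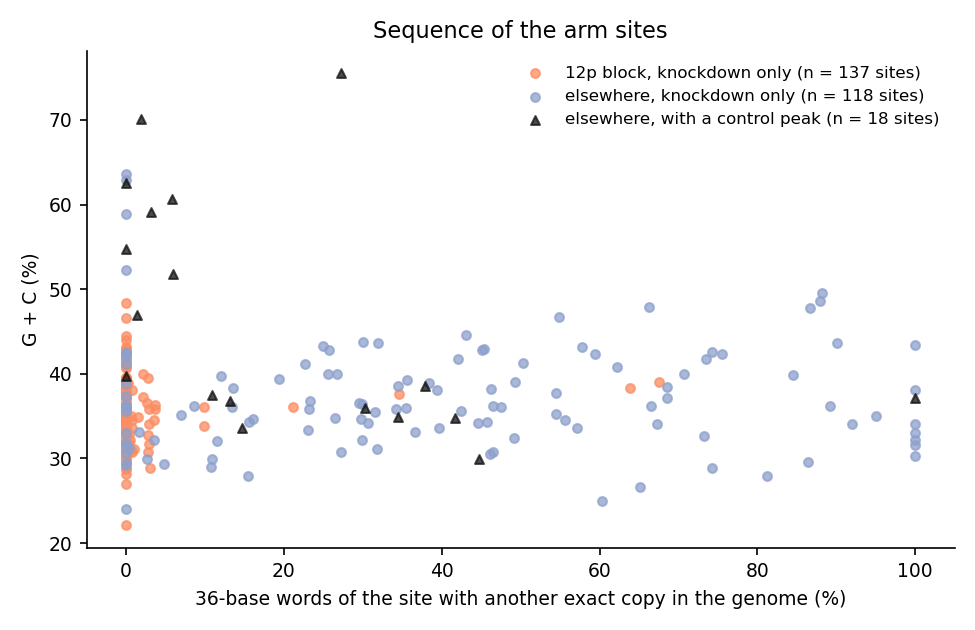
GC content (percent, vertical) of each of the 273 arm sites against the share of its 36-base words that have another exact copy in the genome (percent, horizontal). Sites of the 12p block lie almost all at the left edge, knockdown sites elsewhere spread across the whole width, and sites with a control peak include the GC-rich group at the upper left.

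The sites shared by control and all knockdowns were in partly repeated sequence. Only 4 sites had a peak in all 6 lists. The 4q13 site held the widest arm peak of every list. Its summed widths were 2574, 2561, 2569, 2568, 1967 and 2496 bp, in 1 peak in each 4-library list, 3 in HIRA+DAXX and 2 in HIRA+HJURP. The starts in the 4-library lists lay within 16 bp of each other and so did the ends. It contained no annotated gene, and the nearest protein-coding gene was CENPC, 67675 bp away, which encodes an inner kinetochore protein that binds CENP-A nucleosomes. The site held the CENP-B box matches described above, and 14.1% of the 36-base words of its peaks were repeated elsewhere.

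The 3 others lay together in introns of DHX32, an RNA helicase gene on 10q, in a locus that reached into FANK1 (chr10:127574835-127594218). This locus had 38 peaks in 8 sites, as 3, 7, 4, 6, 8 and 10, covering 3672, 8323, 4686, 6391, 3226 and 4869 bp. At the site with the sequence shown above, chr10:127577662-127579444, the summed widths were 1196, 1769, 1349, 1736, 908 and 1234 bp. Another locus with peaks in all 6 lists was at 2q21 in ANKRD30BL (chr2:132996702-133009619). It held 1, 2, 5, 4, 3 and 6 peaks covering 948, 1550, 2460, 1741, 506 and 1026 bp. Unlike the DHX32 locus, it shared much sequence with the centromere bands of the reference, with a mean of 29.8% of the 36-base words of its peaks found there, beside 0.056% for DHX32. Each band touched an assembly gap of at least 2 Mb, and sequence missing from the reference could not be matched in any such share.

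Some loci with a low-GC control peak had peaks in part of the knockdown lists. An intron of EIF4G3, a translation initiation factor gene, had widths of 1838, 0, 1834, 1417, 0 and 292 bp (chr1:21347788-21349644). A locus in a long noncoding RNA on 13q (chr13:63621144-63644971) had 344, 0, 2334, 2152, 0 and 206 bp. The control peak there shared bases with HIRA and HJURP peaks alone. In CDC27, a subunit of the anaphase-promoting complex, the widths over the locus were 192, 203, 0, 0, 159 and 138 bp. The control peak in CDC27 shared bases with the HIRA+DAXX and HIRA+HJURP peaks alone. A further site of this kind lay outside genes on 1q (chr1:203889622-203889863), with 238, 0, 237, 221, 240 and 0 bp. All 36-base words of its peaks were repeated elsewhere, and it is named after its values were seen. The HIRA+HJURP list had a peak at the 3 loci in genes but none at the 1q site.

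Outside the block, 7 of 76 loci had a peak in all 5 knockdowns and none in control. On 7q, KMT2C, a histone H3 methyltransferase gene, had 19 peaks in its body (0, 4, 3, 3, 6 and 3) and held 2 of these loci, chr7:151975847-151986158 and chr7:152099348-152100255. A mean of 33.3% of the 36-base words of the peaks at the first were also found in centromere bands, and 0% at the second. The third locus was in PSMD14-DT, a noncoding RNA beside a proteasome gene (chr2:162135115-162135851), with 0, 386, 264, 498, 169 and 175 bp. The 4 others were near the ends of chromosome 4.

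Sites outside the block were concentrated towards chromosome ends. Of the 136 sites, 38 (27.9%, 95% Wilson interval 21.1 to 36.01%) lay within 1 Mb of an end, where 1.49% of the arm bases are, and 63 (46.3%, 38.2 to 54.7%) lay within 10 Mb, where 15.7% are. No control peak lay within 1 Mb of an end, and the knockdown lists had 16, 8, 14, 16 and 29 such peaks. The sites came from few places. Of the 44 chromosome ends, counted whether or not the reference has arm sequence there, 14 had a site within 10 Mb. The end of 4q alone had 27 of the 63 sites and 66 peaks, followed by 10q with 8 sites, the DHX32 locus, and 7q with 7, all in KMT2C. Read over all 273 arm sites, block included, 23.1% lay within 10 Mb.

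**Figure D5:**
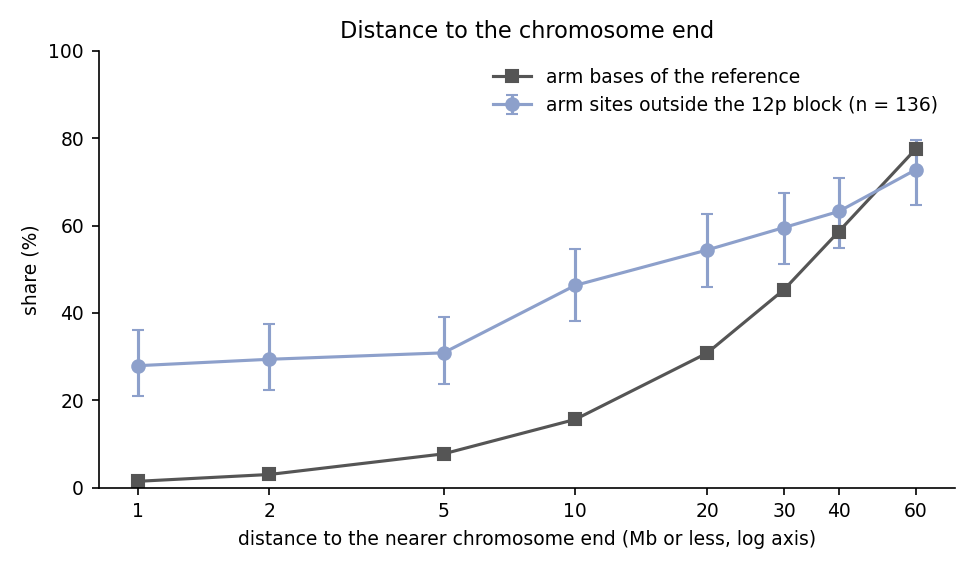
Share in percent of the 136 arm sites outside the 12p block (blue, bars are 95% Wilson intervals) and of the arm bases of the reference (grey) that lie within a given distance in Mb of the nearer chromosome end, on a log axis. The site share is above the base share up to 40 Mb and below it at 60 Mb, where it is 72.8% beside 77.5%.

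The 27 sites of 4q formed a run of 0.838 Mb (chr4:190194884-191032402) with no control peak and 0, 12, 6, 10, 15 and 23 peaks. Their coverage was 0, 8.84, 3.96, 6.21, 3.05 and 5.87 kb. This end carries FRG1 and the repeat array of DUX4, genes studied in facioscapulohumeral muscular dystrophy. The locus nearest the end, 122 kb from it (chr4:191028365-191032402), was 21287 bp from DUX4 by the annotation and had 0, 3027, 675, 2155, 776 and 2542 bp. A second locus, chr4:190667656-190670689, had 0, 2144, 2008, 2164, 756 and 814 bp. Another, in FRG1-DT, the noncoding RNA beside FRG1, spread over 50.6 kb with 25 peaks in 12 sites (0, 4, 4, 1, 8 and 8). FRG1 itself had peaks in the DAXX and HIRA+HJURP lists alone, where a mean of 77.8% of the 36-base words of its locus were repeated elsewhere.

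The other end of chromosome 4 held the arm peak nearest to any chromosome end, a HIRA peak of 194 bp starting 18.7 kb from it. The next was a DAXX peak of 309 bp at 35.7 kb. Beside them the locus at ZNF595, a zinc finger gene, had peaks in all 5 knockdowns, with 0, 1970, 1563, 1174, 254 and 593 bp (chr4:61592-67559), in sequence where a mean of 0.279% of 36-base words were repeated. On 18p, 108 kb from the end, the noncoding gene ROCK1P1 had peaks in DAXX, HJURP and HIRA+HJURP, and there 81.0% of the words were repeated.

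A run on 3p (chr3:75730407-75998639, 0.268 Mb) held 31 peaks at 17 sites, with 0, 7, 4, 8, 1 and 11 peaks and no control peak. Most were in ZNF717, a zinc finger gene with 26 peaks, and in the overlapping noncoding RNA LINC00960. Its widest locus, chr3:75778946-75793551, had 0, 3701, 1338, 1949, 0 and 1462 bp. The sequence of that locus was largely repeated, with a mean of 88.2% of 36-base words copied elsewhere, so the copy from which the reads came is less certain than at the 12p block. Further along the run, ROBO2, an axon guidance receptor gene, had HIRA and HIRA+HJURP peaks.

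Repeated sequence was common among the arm sites outside the block. At least 50% of the 36-base words had another exact copy at 40 of the 136 sites (29.4%), beside 8.22% of the 24598 arm windows, and the median share of repeated words was 31.7% beside 0%. By list, 1, 10, 6, 15, 8 and 33 peaks outside the block were in such sequence. These sites were clustered, many of them in the 3p run and others in the 4q run, so the share is not that of independent places. All 26 peaks in ZNF717 on 3p were in such sequence, and 6 of the 25 in FRG1-DT on 4q. Words also found inside the centromere bands were present in 42 sites (30.9%), beside 24.4% of arm windows. At 3 sites at least 50% of the words matched the mitochondrial genome, at MTCO3P12 on 1p in HIRA+HJURP and at the MTND6P4 copy in an intron of PCBD2 on 5q in HIRA+DAXX and HIRA+HJURP. These were also named after their values were seen.

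Some loci had peaks in the double knockdowns and in no other list. Outside the block these were 26 of 76 loci (34.2%), 18 of them in HIRA+HJURP alone, 3 in HIRA+DAXX alone and 5 in both. The other lists also had loci of their own there, with 6 in control alone, 2 in DAXX alone, 6 in HIRA alone and 2 in HJURP alone. In the block, 19 of 92 loci (20.7%) were in a double knockdown and in no other list. The widest locus of the double knockdowns alone was the pentamer site shown above (chr9:72653061-72653383), 308 and 312 bp wide in the HIRA+DAXX and the HIRA+HJURP list. The next was in the 12p block in an intron of LMNTD1 (chr12:25791012-25791284), and the last was a group of 3 HIRA+HJURP peaks outside annotated genes on 5p, 1 nearest to TAF11L3 (1261 bp) and the others nearest to TAF11L5 (471 and 779 bp). A site of pentamers in an intron of DCC, a netrin receptor gene (chr18:50319114-50319255), had a peak in the same pair of lists, and is named after its values were seen. The remaining pentamer site, in an intron of SENP5, a SUMO protease gene (chr3:196625596-196625837), had 0, 203, 242, 226, 174 and 0 bp.

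Over all conditions, 91 genes had an arm peak in their body, of which 64 were protein-coding, and 36 protein-coding genes had peaks in at least 2 lists. Gene bodies of any kind held 216 of the 273 sites (79.1%, 95% Wilson interval 73.9 to 83.5%), beside 63.9% of the arm bases. The 137 sites of the 12p block count in this share, and genes cover 77.6% of the block bases. Outside the block, 104 of 136 sites (76.5%, 68.7 to 82.8%) lay in a gene body of any kind. For protein-coding genes the share there was 55.1% (46.8 to 63.2%), an interval that includes their share of the arm bases. Many of these sites lay in the same few genes, so they are not independent. Exons of any kind were touched by 49 of the 273 sites (17.9%), beside 5.53% of arm bases, and a wide site can touch an exon that it mostly lies outside. None of the 12 listed chaperone genes of CENP-A and H3.3, 10 of them in the arms studied, and none of the 10 listed kinetochore genes, 9 of them in the arms, had an arm peak within 2 kb. Of 18 genes at common fragile sites, LSAMP, a neuronal adhesion protein gene, alone had one, a HIRA+HJURP peak of 142 bp in an intron. Of all 17630 protein-coding genes in the arms, 74 (0.420%) had a peak within 2 kb, so lists of this size hold too few genes for these counts to be read as a result.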

How the data were processed

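CENP-A ChIP-Seq was measured in 40 libraries, 20 ChIP and 20 input. Per the methods and the submitters' processing notes, reads were trimmed with Trimmomatic, aligned to hg19 with Bowtie2 2.2.6, kept at a mapping quality of 10 or greater, and called with MACS under default parameters, and a merged peak had to overlap peaks of at least 3 replicates. The rule for the double knockdowns is not given in the sources used here. The deposited lists of the authors give positions of merged peaks (start and end) without a score, count or depth, so precision is unknown and Wilson intervals cover counting error only. The condition of each list was taken from the name of the list, and the number of libraries per condition from the sample labels.

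Peaks were joined into sites and loci, and coverage was the sum of widths, in Python 3.11.15 with numpy 2.4.6, numba 0.67.0, scipy 1.17.1, pysam 0.24.0 and matplotlib 3.10.9. Centromere bands were written from general knowledge of the hg19 band table, and each of the 22 touched an assembly gap of at least 2 Mb. Genes were from GENCODE release 44 lifted to GRCh37, and gene starts were those of all protein-coding transcripts. Sequence came from GRCh37, and repeats were 36-base words with another exact copy on either strand. Windows of 358 bases stood every 100 kb. The code was tested on simulated data, where 200 of 200 interval sets and 40 of 40 sequences gave the exact answer.

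The members, gene lists and alternatives were chosen with earlier results of these data known, and the 12p block, the GC classes and the transcript starts after values were seen. Regions were named by a rule that took loci in at least 5 lists, the 3 widest peaks of each list, the 5 widest loci in all single knockdowns without control, the 3 widest loci of the double knockdowns alone, the 5 loci nearest a chromosome end, genes with peaks in at least 3 lists (25 at most), listed genes with a peak, and the 3 widest loci in control alone. Other names are given as chosen after values were seen or lie in the runs described. The result of the list of colon cancer genes is not reported here. Alternatives covered the distance to the bands, peak width, merging, repeats, single chromosomes and overlap rules.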

Additional observations from a re-analysis of the deposited data

How the results depend on the processing

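Of 95 alternative values for 14 results, 66 kept the direction and stayed within 1.5 times the reported ratio or within the reported share's interval, 23 moved further, and 6 turned a ratio from above to below 1, which are 5 of HIRA+DAXX and the 500 bp coverage ratio of HIRA+HJURP. Without chromosome 12, the number ratios for DAXX, HIRA, HJURP and HIRA+DAXX were 2.61, 2.39, 2.78 and 2.72, their coverage ratios were 1.83, 1.65, 1.70 and 0.684, the share of sites in at least 2 lists was 43.6% and the share within 10 Mb of an end was 46.6%. With peaks at least 10 Mb from the bands, which removes part of the 12p block, the HIRA number ratio was 3.56, the coverage ratios of HIRA, HJURP and HIRA+DAXX were 2.48, 1.89 and 0.743, and these shares were 35.8% and 36.4%. With peaks at least 500 bp wide, the number ratios of HIRA+DAXX and HIRA+HJURP were 0.7 and 1.3 and their coverage ratios 0.275 and 0.646. Without repeated sequence the coverage ratio of HIRA+DAXX was 0.945. With the 8q24 segment kept, the HIRA number ratio was 2.66 and the coverage ratios of DAXX, HJURP and HIRA+HJURP were 6.08, 6.01 and 4.02. Counting protein-coding genes alone gave 66.7% of sites in a gene body, loci in place of sites gave 44.6% in at least 2 lists, and end windows of 5 and 2 Mb gave 15.4% and 14.7%. The cause was not tested where the alternative's own construction does not show it. The share of control peaks that touch a knockdown peak stayed between 60 and 66.7% under all its alternatives. No paired analysis was possible because a condition has only 1 merged list, and for the same reason no library could be left out. The lists give no depth, so the absence of a peak does not show an absence of CENP-A.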
